A study of Mus musculus with 2 samples.

Results

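Mir139 is the mouse gene of the microRNA miR-139, and it lies inside Pde2a, the gene of a phosphodiesterase. It was taken as the row of the gene identifier ENSMUSG00000065446.1 in the annotation GENCODE M21, so 1 of 2202 annotated miRNA genes is described here. It was chosen by its CPM and rank in these libraries, so level, rank and the difference between libraries are given as a description, with no test. The libraries are microRNA-seq, which sequences short RNA, from whole adrenal glands of male B6CASTF1/J mice, an F1 hybrid, at 14 days of age. There is 1 group of 2 libraries, biological replicates 1 and 2, with no treatment and no control group. Each biosample names 3 males, and the labels do not say whether their glands were pooled.

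A microRNA gene is transcribed into a longer RNA that is cut to a hairpin, and the hairpin is cut again to a short duplex whose strands are the 5p and 3p mature RNAs. A mature RNA is loaded into an Argonaute protein and pairs with messenger RNAs mainly through its seed, bases 2 to 8 from the 5′ end. In human tumours miR-139-5p is often lower than in the healthy tissue, and IGF1R and ROCK2 are among the targets reported in human cells. Pde2a codes for a phosphodiesterase that breaks down cAMP and cGMP and is stimulated by cGMP. In cow zona glomerulosa cells, the aldosterone-making cells of the outer adrenal cortex, this enzyme takes part in the lowering of cAMP by atrial natriuretic peptide. The files hold no messenger RNA, so neither the level of Pde2a nor the cell type that holds Mir139 was measured.

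The RNAs that the Mir139 row counts are shown first, from RefSeq on GRCm38.p6 and written 5′ to 3′, because the deposited count is of the whole hairpin and not of either arm. Capitals mark the seed in the mature RNAs and both mature arms in the hairpin. The 5p arm is at chr7:101475382-101475403 and the 3p arm at chr7:101475418-101475439, both on the plus strand.
mmu-miR-139-5p: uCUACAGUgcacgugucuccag
mmu-miR-139-3p: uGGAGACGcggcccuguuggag
Mir139 hairpin: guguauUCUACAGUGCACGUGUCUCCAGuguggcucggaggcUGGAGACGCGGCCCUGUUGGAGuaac

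The hairpin has 68 bases, and its sequence in GENCODE M21 was identical to that in RefSeq. Each mature RNA has 22 bases, with 14 bases between the arms, 6 before the 5p arm and 4 after the 3p arm. The predicted minimum free energy fold has 25 base pairs and -35.6 kcal/mol. In it 19 of the 22 bases of the 5p arm pair with the 3p arm, and 6 of the 7 seed bases of the 5p arm are paired. The hairpin is shorter and richer in G and C than most that were detected, where detected means at least 2 CPM in both libraries, and CPM is the count scaled to 1000000 miRNA counts of the library. Its GC content is 58.8%, against a median of 50.2% over the 364 detected miRNA genes. Its length of 68 bases compares with a median of 84, and 47 of the 364 are shorter. Over the whole hairpin, its predicted energy of -35.6 kcal/mol is slightly weaker than the median of -36.8. Per base, its predicted energy of -0.52 kcal/mol compares with a median of -0.43, and 311 of the 364 are less stable by this measure.

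No other mature miRNA carried either seed. Among 1738 mature mouse RNAs in the RefSeq table, the seed CUACAGU of the 5p arm and the seed GGAGACG of the 3p arm were each held by 0 RNAs of another gene. Over bases 2 to 7 alone, the 3p arm had 1 match, mmu-miR-6397, on chromosome 4 at chr4:108087414-108087434, shown with the shared bases in capitals, and the 5p arm had 0.
mmu-miR-6397: uGGAGACuuucaguggaguga
Mir6397 had 0 counts in replicate 1 and 0 in replicate 2, where 3 counts, taken as the limit that a count of 0 allows, would be 0.992 CPM and 0.866 CPM. The Mir139 hairpin shared a 20-base stretch with 0 other annotated miRNA genes, whereas 90 of the 364 detected genes shared one. Among 141767 annotated transcripts, neither mature RNA was found on either strand of any gene other than Mir139. The files assign no multimapping read to a gene, and these made up 27.5% of replicate 1 and 29.4% of replicate 2. Sequence outside annotated transcripts was not searched.

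Mir139 lies on chromosome 7 of mm10, from 101475376 to 101475443, on the plus strand, in an intron of Pde2a. Pde2a spans 101421691 to 101512827 on the same strand, with 12 annotated transcripts, of which 10 cover the hairpin. It is intronic in all 10. In 5 of them, among them all 4 protein-coding ones that cover it, the intron is 29902 bases long, from 101451469 to 101481370, in 4 others it is 19829 bases and in 1 it is 28937. The distance to the next exon was the same in all 10, 5927 bases, and the distance back to the last exon was 13834 to 23907. The 10 transcripts have 9 different start sites, from 14432 to 53685 bases upstream of the hairpin. The hairpin also lies in an intron of Gm45837, a 1-transcript model that starts 64490 bases upstream of it. Which start site gave rise to the miRNA cannot be read from these counts.

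**Figure D1:**
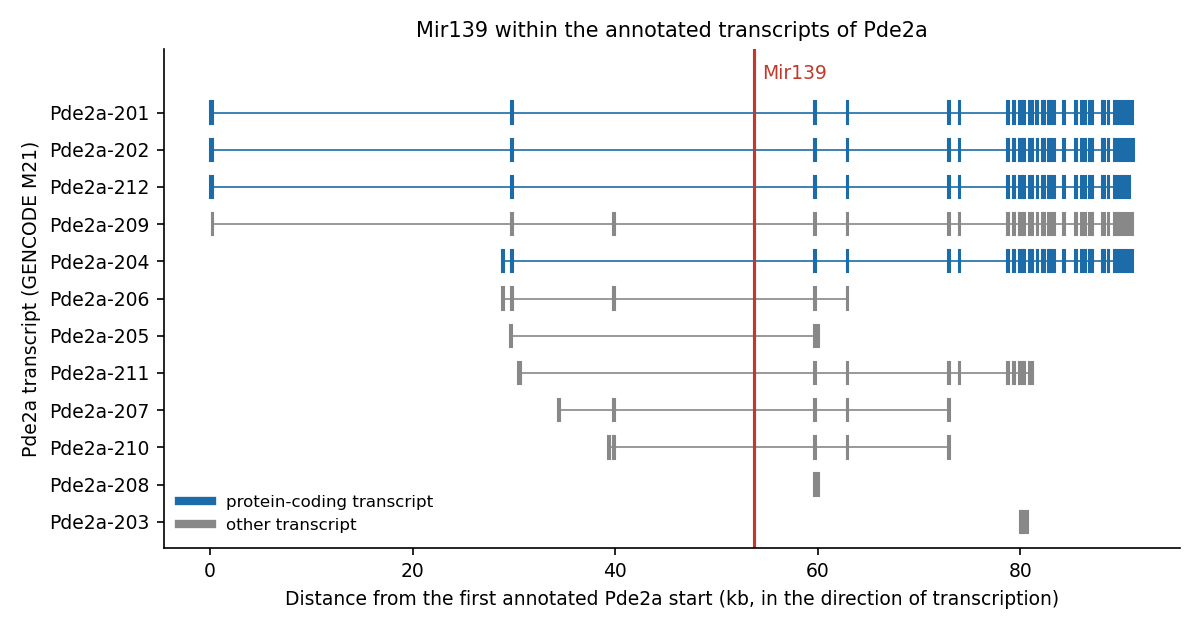
Annotated transcripts of Pde2a in GENCODE M21, with exons as boxes (drawn at least 150 bases wide), introns as lines and distance in kb from the first annotated start; the red line is Mir139. The hairpin is in an intron of 10 of the 12 transcripts, and 2 short transcripts start downstream of it.

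No other annotated miRNA gene is close to it. The nearest on the left was Mir3102, in an exon of Arhgef17, with 592966 bases between them, at 100 CPM in replicate 1 and 73.6 CPM in replicate 2. The nearest on the right was Gm22655, in an intron of Anapc15, 405740 bases away, with 0 counts in each library. Mir139 was the most abundant of 153 miRNA genes on chromosome 7, and 20 of the 153 were detected, against 364 of all 2202 (16.5%). It held 76.1% of the counts of that chromosome's miRNA genes in replicate 1 and 84.0% in replicate 2. The next on the chromosome, named after its value was seen, was Mir1839 at 912 CPM in replicate 1 and 1008 CPM in replicate 2.

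By reads assigned to a gene, Mir139 was among the 20 miRNA genes with the most reads in each library of the young adrenal gland. Whether read counts of different miRNAs follow their numbers of molecules was not tested, so ranks and ratios between genes are of reads. Genes that share sequence with another gene, such as Mir26a-1 and Mir26a-2, can lose reads as multimapping. Ranks and shares here can therefore favour genes without such a partner, such as Mir139, and the size of this was not tested. Mir139 had 35789 counts of 3024662 miRNA counts in replicate 1 and 64921 of 3464837 in replicate 2. These are 11832 CPM in replicate 1 and 18737 CPM in replicate 2, a mean of 15285 ± 4882 CPM (SD, n = 2), and replicate 2 is the higher. As a share of miRNA counts, Mir139 held 1.18% in replicate 1 (exact Clopper-Pearson 95% interval 1.17 to 1.20) and 1.87% in replicate 2 (1.86 to 1.89). These intervals hold the counting error of reads and nothing else, and they are far narrower than the gap between the libraries. They take reads as independent, but PCR copies of a molecule are counted again, so they can be too narrow even for counting error. Its mean was 124 times the median of the 364 detected genes, 124 CPM.

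All of this signal was on the strand of the gene. On the opposite strand Mir139 had 0 counts in each library, which allows up to 0.00838% of its sense count in replicate 1 and 0.00462% in replicate 2. Its count without regard to strand equalled the sense count, 35789 in replicate 1 and 64921 in replicate 2.

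**Figure D2:**
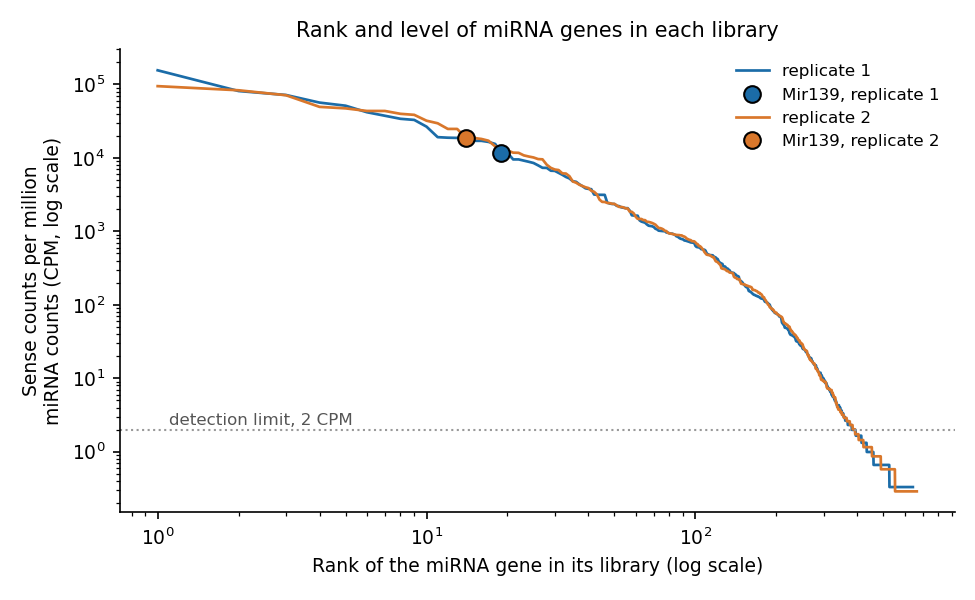
CPM of each miRNA gene with a count against its rank in its library, both on log scales, with 1 line per library and Mir139 as a circle. Mir139 stands at rank 19 with 11832 CPM in replicate 1 and at rank 14 with 18737 CPM in replicate 2, far above the detection limit of 2 CPM.

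The rank of Mir139 was 19 in replicate 1, 14 in replicate 2 and 18 by the mean. The level of 12 genes was above that of Mir139 in both libraries, of 6 in replicate 1 alone and of 1 in replicate 2 alone. By the range spanned by the libraries, 10 genes lay wholly above Mir139, 2181 wholly below it, and 10 overlapped it. Of the overlapping genes, Mir26b and Mir23a were above Mir139 and Mir30e below it in each library. The order against the other 7, Mir451a, Mir122, Mirlet7d, Mir99a, Mir335, Mir127 and Mir10b, differed between the libraries.

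The 5 genes next above it by mean were Mir23b, Mir23a, Mirlet7d, Mir99a and Mir335. Mir23b, of the cluster with Mir27b and Mir24-1, was the one of these whose range lay wholly above, at 19151 CPM in replicate 1 and 24782 CPM in replicate 2. Mir23a, of the related cluster with Mir24-2, had 18705 CPM in replicate 1 and 24776 CPM in replicate 2. It was above Mir139 in each library, although its lower value is below the higher value of Mir139.

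Mirlet7d, a let-7 gene, and Mir99a changed places with Mir139. Mirlet7d had 17072 CPM in replicate 1 and 18677 CPM in replicate 2. Mir99a, a neighbour of Mirlet7c-1, had 17058 CPM in replicate 1 and 18102 CPM in replicate 2. Within a library, the ratio of Mir139 to Mirlet7d was 0.693 in replicate 1 (exact 95% interval 0.684 to 0.703) and 1.00 in replicate 2 (0.992 to 1.01), so in replicate 2 their counts agree within counting error.

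Mir335, in an intron of the imprinted gene Mest, had 18826 CPM in replicate 1 and 14344 CPM in replicate 2. The ratio of Mir139 to Mir335 was 0.629 in replicate 1 (0.620 to 0.637) and 1.31 in replicate 2 (1.29 to 1.32). Such ratios of 2 genes of 1 library do not depend on the total used for scaling.

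The 5 genes next below it were Mir127, Mir10b, Mir411, Mir30e and Mir30a. Mir127, of the imprinted Dlk1-Dio3 region, had 15477 CPM in replicate 1 and 13585 CPM in replicate 2. Mir10b, of the HoxD cluster, had 17870 CPM in replicate 1 and 10131 CPM in replicate 2. Both were above Mir139 in replicate 1 and below it in replicate 2.

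Mir411, also of the Dlk1-Dio3 region, was at 11712 CPM in replicate 1 and 10434 CPM in replicate 2. The ratio of Mir139 to Mir411 was 1.01 in replicate 1 (0.996 to 1.03), within counting error, and 1.80 in replicate 2 (1.77 to 1.82). Mir30e, at 9182 CPM in replicate 1 and 12632 CPM in replicate 2, and Mir30a, at 8518 CPM in replicate 1 and 11714 CPM in replicate 2, were below Mir139 in each library.

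**Figure D3:**
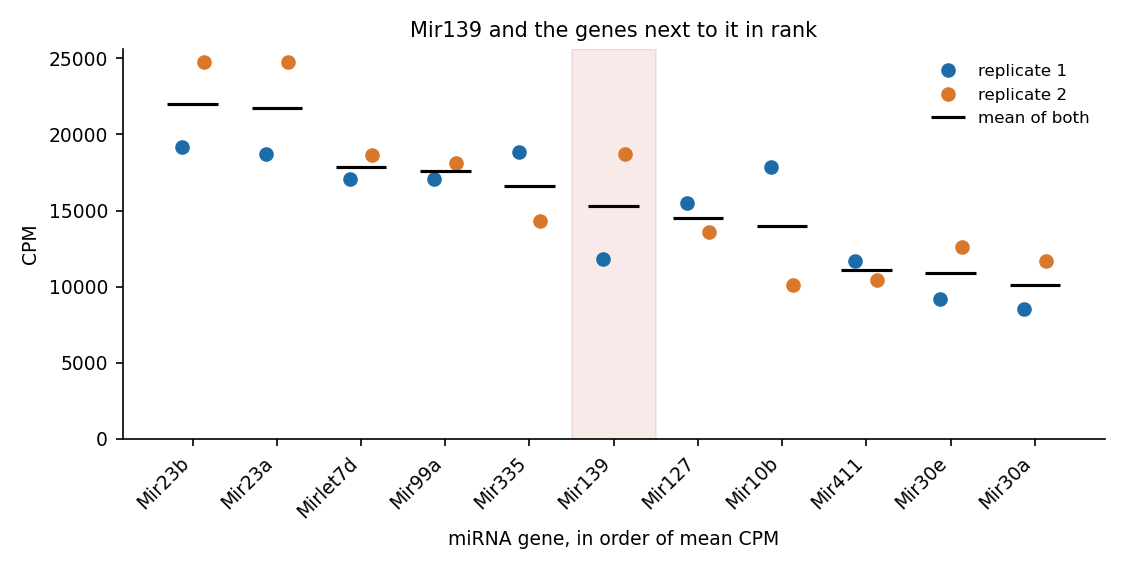
CPM of Mir139 (shaded) and of the 5 genes next above and next below it by mean CPM, with 1 point per library and a bar at the mean. Mir139, at 11832 CPM in replicate 1 and 18737 CPM in replicate 2, overlaps 7 of these 10 genes in range, and Mir23b, Mir411 and Mir30a do not overlap it.

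Mir139 was 1.58-fold lower in replicate 1 than in replicate 2 (exact conditional 95% interval 1.56 to 1.60, counting error only), a ratio of 0.631 and a log2 ratio of -0.66. The labels put both libraries in 1 group, and 1 library against 1 allows no test of this gap. A gap of this size was not rare among miRNA genes. Of 189 genes with a mean of 100 CPM or more, 15.9% were lower in replicate 1 by 1.5-fold or more, as Mir139 was, and 11.1% were higher by as much. At 2-fold or more, which Mir139 did not reach, 7.94% were lower and 6.88% higher. The absolute log2 ratio was larger than that of Mir139 in 42 of the 189 genes (22.2%), against a median of 0.33. Of 81 genes of 1000 CPM or more, 14 had a larger one (17.3%).

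Over 80 other genes of 1000 CPM or more, the 5 whose log2 ratio between the libraries was closest to that of Mir139 were Mir376a, Mir27b, Mir431, Mir21a and Mir182. This likeness rests on 2 libraries and is a description. Mir376a and Mir431, both of the Dlk1-Dio3 region, had ratios of 0.655 and 0.670. Mir27b had a ratio of 0.660, at 2353 CPM in replicate 1 and 3567 CPM in replicate 2. Mir21a, reported to raise aldosterone output of human adrenocortical cells, had 7910 CPM in replicate 1 and 11784 CPM in replicate 2, a ratio of 0.671. Mir182, of the miR-183 cluster, had a ratio of 0.575.

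Several of the listed cell type markers also differed between the libraries. The hepatocyte miRNA Mir122 made up 0.379% of miRNA counts in replicate 1 and 4.95% in replicate 2, so it was lower in replicate 1 as Mir139 was. The 10 listed kidney and epithelial miRNAs summed to 0.0885% in replicate 1 and 0.192% in replicate 2, 8 of them lower in replicate 1, and none was at 0. Most of each sum was Mir203, at 697 CPM in replicate 1 and 1344 CPM in replicate 2. Of the 8, Mir194-1 differed within counting error, at 7 and 9 counts. The other 2, Mir200c and Mir141, were higher in replicate 1, Mir200c by 1.92-fold and Mir141 within counting error. The endothelial Mir126a held 15.6% in replicate 1 and 9.47% in replicate 2. The 3 red blood cell miRNAs summed to 4.40% in replicate 1 and 1.92% in replicate 2. Nearly all of that gap was Mir451a, at 41829 CPM in replicate 1 and 17126 CPM in replicate 2, whereas Mir144 was at 2093 CPM in replicate 1 and 2053 CPM in replicate 2, within counting error, and Mir486 at 37.0 CPM in replicate 1 and 23.7 CPM in replicate 2.

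The 5 white blood cell miRNAs summed to 0.488% in replicate 1 and 0.261% in replicate 2, 4 of them higher in replicate 1. Mir223 went the other way, at 31.1 CPM in replicate 1 and 89.5 CPM in replicate 2. The smooth muscle and mesenchymal pair, Mir143 and Mir145a, summed to 5.24% in replicate 1 and 4.46% in replicate 2. Nearly all of that gap was Mir143, whereas Mir145a was at 1064 CPM in replicate 1 and 1062 CPM in replicate 2, within counting error. The 10 neuroendocrine and neuronal miRNAs summed to 3.11% in replicate 1 and 3.43% in replicate 2. Mir124a-2, Mir124a-3 and Mir9-2 were at 0 in both. For every listed Mir124a and Mir9 gene, part of the hairpin sequence recurs in 2 further genes, and multimapping reads went to no gene. Their zeros and low counts therefore cannot show that these miRNAs were absent, and the sums can be too low. Most of each sum was Mir375, at 26615 CPM in replicate 1 and 29592 CPM in replicate 2. Of the 10, 4 were detected and 6 had 0 counts in replicate 2. By gene, 5 were higher in replicate 1, among them Mir124a-1, Mir9-1 and Mir9-3 at 1 or 2 counts, and 2 were lower. The part of any of these in the ratio of Mir139 was not tested. In whole glands fewer cells of a type and less RNA per cell cannot be told apart.

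**Figure D4:**
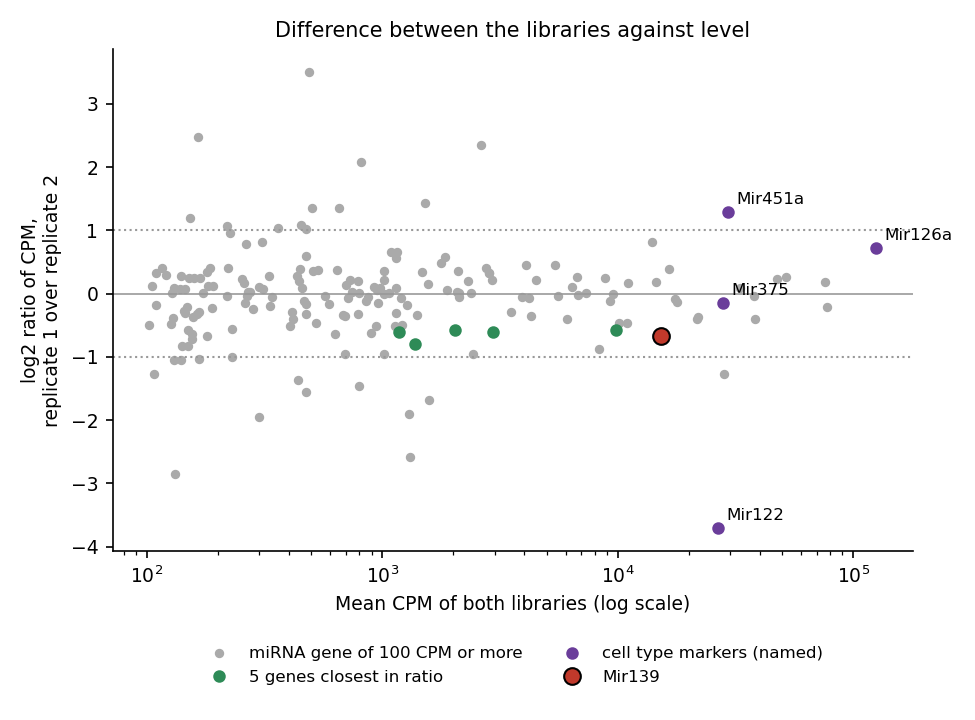
Log2 ratio of CPM, replicate 1 over replicate 2, against mean CPM on a log scale for the 189 miRNA genes of 100 CPM or more; dotted lines mark a 2-fold difference, green points the 5 genes closest to Mir139 in ratio and purple points 4 named cell type markers. Mir139 lies at -0.66, between the line of no difference and the 2-fold line, while Mir122 and Mir451a lie beyond the 2-fold lines.

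Mir139 ranked 6 of 733 miRNA genes that lie in introns of protein-coding genes on the same strand. It held 3.68% of the counts of that set in replicate 1 and 5.39% in replicate 2. Those above it by mean were Mir378a in Ppargc1b, Mirlet7g in Wdr82, Mir26b in Ctdsp1, Mir23b in 2010111I01Rik and Mir335 in Mest. Of these, Mir378a, at 71827 CPM in replicate 1 and 83205 CPM in replicate 2, and Mirlet7g, at 81272 CPM in replicate 1 and 71269 CPM in replicate 2, lay far above the range of Mir139. Mir26b, at 16497 CPM in replicate 1 and 39787 CPM in replicate 2, overlapped it and was also lower in replicate 1.

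**Figure D5:**
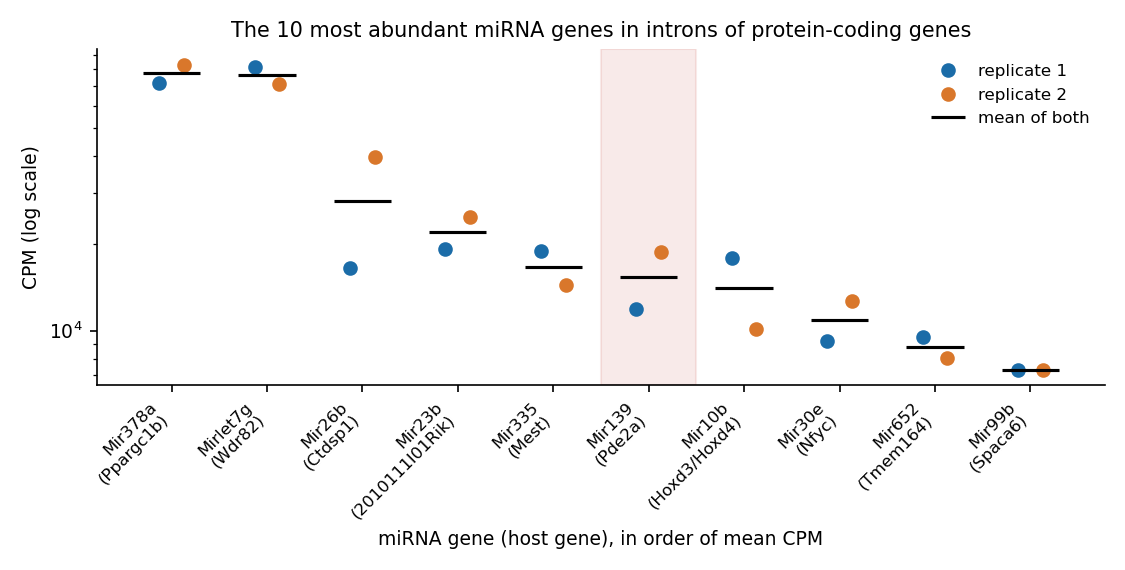
CPM, on a log scale, of the 10 most abundant miRNA genes in introns of protein-coding genes on the same strand, with 1 point per library, a bar at the mean and the host gene in parentheses; Mir139 is shaded. Mir139, at a mean of 15285 CPM, is the sixth, between Mir335 in Mest and Mir10b, which lies in introns of Hoxd3 and Hoxd4.

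A list of 50 miRNA genes with well-known host genes was also set beside Mir139. By the annotation 39 lie in an intron of the listed host, 8 in an exon of it and 3, Mir9-1, Mir191 and Mir425, in neither. Of the 50, 33 had a mean of 100 CPM or more and 17 did not. Of the 33, 8 were lower in replicate 1 by 1.5-fold or more, Mir139 among them, and 3 were higher (24.2% and 9.09%, against 15.9% and 11.1% of all 189 genes). The median log2 ratio of the 33 was 0.00, as it was over the 189. The 8 most abundant were Mir126a, Mir378a, Mir26b, Mir23b, Mir335, Mir139, Mir30e and Mir191. Mir191, beside Mir425, was almost level, at 6690 CPM in replicate 1 and 6824 CPM in replicate 2.

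Other phosphodiesterase genes host few miRNA counts here. These hosts were looked up after the values were seen. Mir582, in an intron of Pde4d, had a mean of 4.02 CPM. Mir1904, also in Pde4d, was at 0.331 CPM, and Gm44413, in Pde1c, had 0 counts in each library.

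In a list of 15 miRNA genes linked to adrenal steroid synthesis, none of them Mir139, 1 was above Mir139 by mean, Mir23a. In this list Mir23a, Mir24-1, Mir24-2, Mir101a, Mir101b, Mir125b-1 and Mir125b-2 each share a 20-base stretch with 1 other miRNA gene. Multimapping reads were not assigned, so the CPM of these genes can be too low, and their order against Mir139 is uncertain where they are below it. The next were Mir21a at 9847 ± 2739 CPM and Mir125a at 2423 ± 1087 CPM. Mir320 was at 1838 ± 517 CPM, Mir455 at 1020 ± 177 CPM and Mir101b at 798 ± 526 CPM (SD, n = 2 each). Of these, Mir125a and Mir455 are reported to lower the lipoprotein receptor SR-BI in rodent steroid-making cells. Of the 12 with a mean of 100 CPM or more, 4 were lower in replicate 1 by 1.5-fold or more and 0 higher (33.3% and 0%, against 15.9% and 11.1% of all 189 genes). The 0 depends on the limit, because Mir320 was 1.497-fold higher in replicate 1, and Mir455 and Mir132 were higher by less. The 4 depends on it too, because Mir21a was 1.490-fold lower in replicate 1. The 4 lower genes were Mir125a, Mir101b, Mir101a and Mir24-2, and all but Mir125a share a 20-base stretch with another gene. The median log2 ratio of the 12 was -0.37, against 0.00 over the 189 genes and -0.66 for Mir139.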

How the data were processed

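Each library has 1 deposited file of raw counts for miRNA genes, with no normalization, and the deposited notes name mm10 and GENCODE M21. The sources used here do not give the aligner or the counter. The second of 3 count columns, reads on the gene's strand, was used, as its values show. The 4 summary rows, 57.8% of reads in replicate 1 and 59.1% in replicate 2, name no gene and stayed out. Counts were divided by the miRNA total of the library and given as CPM. The totals, 3024662 and 3464837, make 1 count 0.331 and 0.289 CPM. Intervals are exact for counting error alone. The computation of the ratio interval was checked on simulated counts with that error only, without PCR copies or spread between libraries. Hosts, introns and hairpins came from GENCODE M21, mature sequences from RefSeq, and folds from RNAfold 2.7.2. TMM came from edgeR 4.0.16 and size factors from DESeq2 1.42.0, as alternatives; Python 3.11.15, SciPy 1.17.1 and R 4.3.3 were used.

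Mir139 and the lists were chosen with earlier results of these data known. The genes named are Mir139, the 5 next above and below it, the 5 of 1000 CPM or more closest in ratio, sharers of its seed, its neighbours on the chromosome, and the most abundant 8 and 6 of the host-gene and steroidogenesis lists. Others were named after their values were seen. The replicates come from different biosamples that share a donor record, so whether the spread is between animals is not known.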

Additional observations from a re-analysis of the deposited data

How the results depend on the processing

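Mir139 was lower in replicate 1 under every alternative tried, with a ratio of 0.630 with DESeq2 size factors, 0.631 over genes at 2 CPM or more, 0.643 with edgeR's TMM, 0.652 per read of the file, 0.616 without genes that share a 20-base stretch, 0.603 without Mir122, 0.694 with unstranded counts and 0.714 without the 5 most abundant genes. The last and the unstranded counts moved the median log2 ratio of genes of 100 CPM or more to 0.17 and 0.15. Relative to that median Mir139 was at -0.66 and -0.67. A changed total shifts every log2 ratio alike, so this distance could hardly move and is no check of the gap. Unstranded counts drop reads over genes on both strands, such as Mir126a. The mean level was 20586 CPM with them, 24335 CPM without the 5 most abundant genes and 6323 per 1000000 reads of the file, and each of these changes the total divided by. Leaving out each replicate gave 11832 to 18737 CPM and ranks 14 to 19. Without the 5 most abundant genes the rank was 13, which follows from leaving out 5 genes that all stood above it. Among intronic genes the rank was 7 with hosts of any type and 5 to 7 with each replicate left out. Of genes of 100 CPM or more 28 differed 2-fold, 51 differed 1.5-fold, and 8 of those of 1000 CPM or more differed 2-fold. With 2 libraries, precision is limited by their number and not by depth. No paired analysis was possible because there is 1 group.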

Other observations

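Of 733 miRNA genes in introns of protein-coding genes on the same strand, 122 were detected (16.6%), against 242 of the 1469 others (16.5%). The detected intronic genes had a median of 93.9 CPM and the other detected genes 131 CPM. The intronic genes together held 32.1% of miRNA counts in replicate 1 and 34.8% in replicate 2. Against the neuroendocrine Mir375, which is known from endocrine cells, Mir139 had a ratio of 0.445 in replicate 1 and 0.633 in replicate 2, and against the endothelial Mir126a 0.0760 in replicate 1 and 0.198 in replicate 2.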
